A study of Drosophila melanogaster with 9 samples.

Results

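The Nimrod and scavenger receptor genes of plasmatocytes were followed across the 3 genotypes of a whole-larva RNA-seq series in Drosophila melanogaster. The members were taken as a list of 10 genes, NimB2, NimB4, NimB5, NimC1, NimC2, NimC3, NimC4, eater, Sr-CI and crq, out of 16977 named genes, with the RefSeq transcript rows of each gene summed. The genotypes were tuSz1, a melanotic tumour strain in which self-tolerance is lost; hopTum, with an overactive form of hopscotch, the fly JAK kinase; and w1118, a white-eyed laboratory strain used as the control. Each had 3 libraries, each from 20 pooled whole larvae, and all larvae were grown at 28 °C on standard medium. The larval stage, the sex and the rest of each strain's background are not given in the sources used here, so a difference between genotypes is a difference between strains.

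Plasmatocytes are the phagocytic blood cells of the fly larva. Nimrod proteins carry small cysteine-rich repeats that resemble EGF domains. The C group and Eater are membrane proteins, and the B group lacks a membrane anchor and is secreted. NimC1 and Eater bind bacteria, NimC4 (also called Simu) binds dying cells, and Sr-CI is a class C scavenger receptor that binds bacteria. Croquemort, the product of crq, is a CD36-type receptor for dying cells. NimB4 is a secreted protein that aids clearance of dying cells, and NimB5 is a secreted fat body protein that acts on blood cells. No role of NimB2 is given here. Other blood cells of these strains are the lamellocytes, large flat cells that wrap foreign or own tissue.

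Total counts were between 12041845 and 14517286 in tuSz1, 9552828 and 12180558 in hopTum, and 10387052 and 10973053 in w1118. Levels are given as CPM, read counts scaled by library sizes adjusted with the trimmed mean of M-values (TMM), and 3 counts, the counting floor used here, corresponded to 0.2 to 0.357 CPM. Replicate 3 of tuSz1 stood apart, with a TMM factor of 0.578 and a summed level of 6 salivary glue genes of 33.1 CPM, against 56046 and 57459 CPM in replicates 1 and 2. Genes were called at an adjusted p under 0.05 over all 9106 tested genes, with edgeR's quasi-likelihood test and Benjamini-Hochberg adjustment.

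The Nimrod members lay in 1 cluster on chromosome arm 2L, and some of them were listed at or near 0. In build dm6, NimB2 spanned chr2L:13965012-13967018, NimB4 chr2L:13968280-13969976 and NimC1 chr2L:13973158-13976769, all on the minus strand. NimB5 spanned chr2L:13970177-13972173 and NimC2 chr2L:13980126-13983269, both on the plus strand. NimC3 lay at chr2L:14019357-14020208 on the minus strand, and NimC4 at chr2L:14047582-14048863 on the plus strand. Sr-CI (chr2L:4121702-4124153, plus strand) and crq (chr2L:448254-453024, minus strand) lay elsewhere on the same arm, and eater at chr3R:27095867-27099679 on the minus strand. NimC2 and NimC3 were listed at 0 in all 9 libraries, and NimB5 had 4 counts in tuSz1, 2 in hopTum and 0 in w1118.

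**Figure D1:**
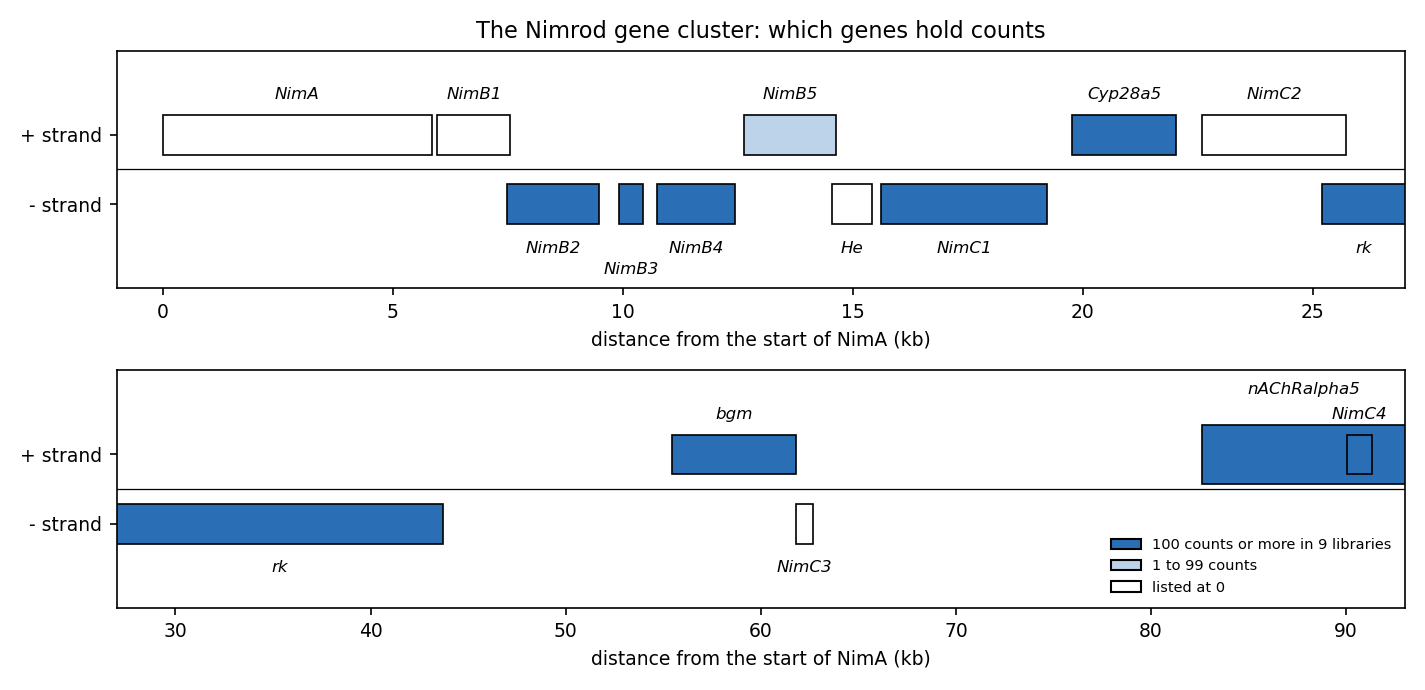
Genes of the Nimrod cluster and neighbouring genes, drawn to scale by strand as distance in kb from the start of NimA, and filled by their total count over the 9 libraries. NimB2, NimB3, NimB4, NimC1 and NimC4 hold 100 counts or more, NimB5 holds 6, and NimA, NimB1, NimC2, NimC3 and the neighbour He are listed at 0.

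These zeros stood where exons are shared, and whether the sharing caused them was not tested. NimC2 has 3 annotated transcripts, and 0 of its 2819 exon bases belong to a single transcript. NimC3 has 1 transcript, but 814 of its 852 exon bases lie under the antisense gene asRNA:CR44849 on the other strand. NimB5 has 60 such private bases of 1395 and shares 78 with He, which encodes a blood cell surface protein. By contrast all exon bases of NimB4, NimC4 and eater, and 94.6% of those of NimB2, belong to 1 transcript. NimC1 has 38.1% private bases, Sr-CI 6.7% and crq 4.1%. Over all genes with at least 500 exon bases, 95.9% of the 931 with no private base were at 0 in every library, against 3.0% of the 6860 with more than 75% private bases. In the group with over 0 to 5% private bases, which holds NimC3, NimB5 and crq, 59.3% of 1733 genes were at 0. NimC2, NimC3 and NimB5 are therefore described as listed at 0 or near it, not as unexpressed, and the levels of NimC1, Sr-CI and crq rest on part of each gene.

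Levels per length could be compared among the 4 counted members with 1 transcript. NimB2 was the highest in every genotype, at 672 ± 402 CPM per kb of exon in tuSz1, 400 ± 120 in hopTum and 75.3 ± 31.8 in w1118 (SD, n = 3 each). NimB4 came next, at 85.4 ± 13.7 CPM per kb in tuSz1, 113 ± 16.5 in hopTum and 42.9 ± 8.7 in w1118. The receptor gene eater followed at 9.88 ± 6.36 CPM per kb in tuSz1, 15.5 ± 4.7 in hopTum and 18.5 ± 8.16 in w1118. NimC4 was at 1.01 ± 0.44 CPM per kb in tuSz1 and at 0 in w1118. In hopTum it was at 26 ± 25.5 CPM per kb, a range of 5.07 to 54.4 that takes in the eater values of that genotype. NimB2 and NimB4 thus stood above eater and NimC4 in every library.

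Of the 10 members, 7 passed the filter on low counts. NimC4 and Sr-CI had at most 21 and 2 counts in any library outside hopTum, so they passed through the genotype in which they were high. The counts of members below, and the p-values of NimC4 and Sr-CI, are descriptions only. In hopTum against w1118, 5 members were called, all higher, while 18.1% of all tested genes were called and 11.5% were called higher. In tuSz1 against w1118, 4 were called, all higher, while 16.3% of all tested genes were called and 9.97% were called higher. In tuSz1 against hopTum, 2 were called, both lower, against 9.66% of all tested genes called and 4.14% called lower. Lower calls made up 6.65% of tested genes in hopTum and 6.33% in tuSz1, both against w1118, and higher calls 5.52% in tuSz1 against hopTum. The comparisons of both mutants with w1118 share the w1118 libraries. The median log2 fold change of all tested genes was between -0.05 and 0.08 in the 3 comparisons.

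**Figure D2:**
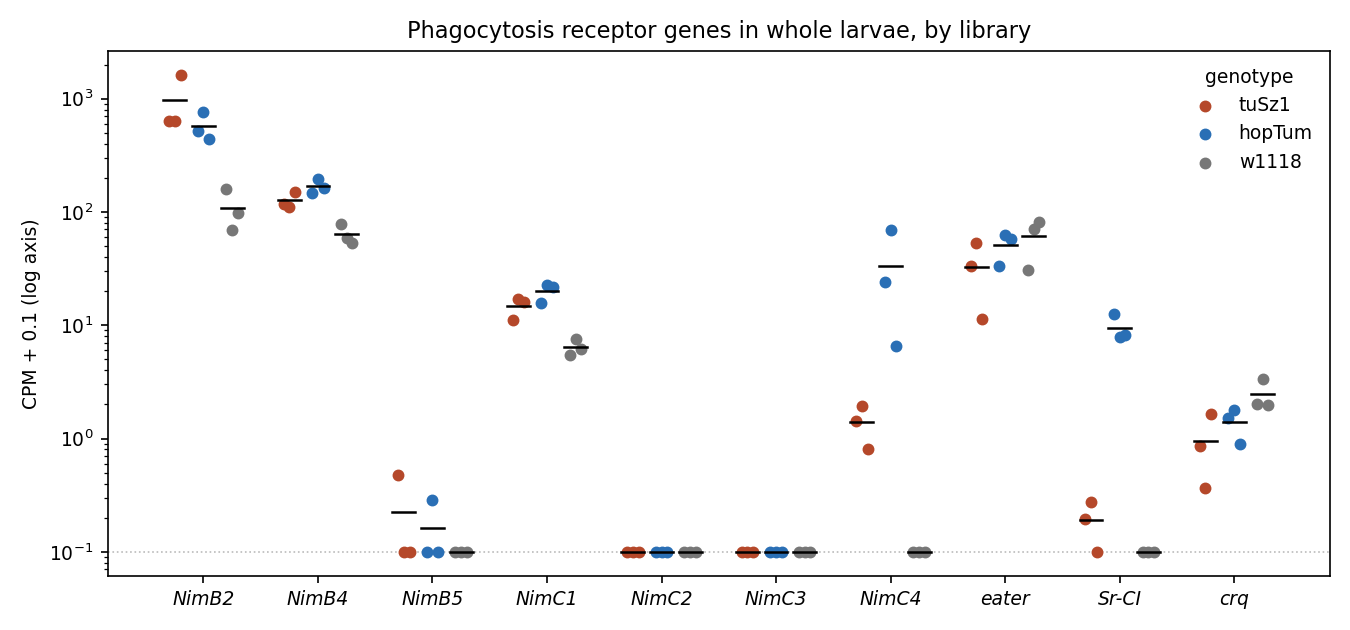
Level of each member in each library, as CPM + 0.1 on a log axis, with points for the 3 libraries of tuSz1, hopTum and w1118 and a bar at the mean. NimB2, NimB4 and NimC1 lie higher in both mutants than in w1118, NimC4 and Sr-CI are at 0 in w1118 (dotted line) and highest in hopTum, and eater overlaps between all genotypes.

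NimB2, the member with the highest total count, was higher in both mutants. It had 631, 633 and 1630 CPM in the 3 tuSz1 libraries, 515, 768 and 438 CPM in hopTum, and 158, 69 and 97 CPM in w1118. Every library of each mutant lay above every w1118 library, and the mutants overlapped. The log2 fold change was 3.16 (with SE 0.48, adjusted p = 0.00102, edgeR) in tuSz1 against w1118 and 2.41 (SE 0.46, adjusted p = 0.0045) in hopTum against w1118. Between tuSz1 and hopTum it was 0.75 with a 95% interval of -0.21 to 1.71 (adjusted p = 0.328, edgeR). In tuSz1 the high library was replicate 3, which also had the highest summed level of 6 fat body marker genes, 194632 CPM against 74195 and 115483 CPM in replicates 1 and 2. Nearly all of that sum came from Lsp1alpha and Lsp1gamma. Among the tuSz1 libraries, replicate 3 also had the highest summed muscle, crystal cell and midgut markers, at 123488, 335 and 440 CPM. Its salivary glue and plasmatocyte marker sums were the lowest, and its lamellocyte sum lay between those of the others. In w1118 the fat body sum was 11796 to 23195 CPM. The part of these markers in the NimB2 result was not tested. Without tuSz1 replicate 3 the call against w1118 remained.

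NimB4 was also higher in both mutants. It had 118, 111 and 149 CPM in tuSz1, 146, 194 and 163 CPM in hopTum, and 77.9, 58.7 and 53.6 CPM in w1118. No mutant library overlapped the w1118 libraries. The log2 fold change was 0.99 (with SE 0.24, adjusted p = 0.0172, edgeR) in tuSz1 and 1.4 (SE 0.25, adjusted p = 0.00281) in hopTum, both against w1118. The tuSz1 call was lost without tuSz1 replicate 3 (0.86, adjusted p = 0.0552), w1118 replicate 2 (0.94, adjusted p = 0.0818) or w1118 replicate 3 (0.88, adjusted p = 0.0655). It was also lost with no filter on low counts (0.82, adjusted p = 0.0578) and under total count scaling (0.19, adjusted p = 0.566, edgeR). That scaling put the median log2 fold change of all tested genes at -0.7. Between the mutants the log2 fold change was -0.41 (95% interval -0.94 to 0.12, adjusted p = 0.33, edgeR), and it was called under total count scaling (-0.84, adjusted p = 0.036).

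NimC1, the bacterial receptor that marks plasmatocytes, was also higher in both mutants. It had 11.1, 17 and 16.1 CPM in tuSz1, 15.7, 22.7 and 21.7 CPM in hopTum, and 5.37, 7.47 and 6.01 CPM in w1118. The mutant libraries overlapped each other and none overlapped w1118. The log2 fold change was 1.23 (with SE 0.34, adjusted p = 0.0282, edgeR) in tuSz1 and 1.67 (SE 0.34, adjusted p = 0.00638) in hopTum, both against w1118. The hopTum call held under every setting and with each library left out, while the tuSz1 call was lost under 12 of 20 settings. Among these were the fits without any one w1118 library (adjusted p = 0.0746, 0.0686 and 0.0897 without replicates 1, 2 and 3), tuSz1 replicate 2 (0.092) or tuSz1 replicate 3 (0.0638, edgeR).

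The NimC1 counts came from 2 of its 3 transcript rows, which the files do not tie to named isoforms, and the annotation likewise has private bases in 2 of the 3 transcripts. In row 3, tuSz1 had 52, 130 and 61 counts, hopTum 61, 59 and 98, and w1118 11, 20 and 26. In row 1, tuSz1 had 65, 64 and 74 counts, hopTum 93, 182 and 149, and w1118 62, 92 and 57. Fitted row by row, a step added after the values were seen, row 3 was higher in tuSz1 (2.57 on the log2 scale, SE 0.49, adjusted p = 0.00455, edgeR) and in hopTum (2.34, SE 0.49, adjusted p = 0.00701) than in w1118. Row 1 was higher in hopTum than in w1118 (1.44, SE 0.39, adjusted p = 0.0248) and did not pass in tuSz1 against w1118 (0.49, SE 0.38, adjusted p = 0.441, edgeR). Whether the rows differ in their response was not tested.

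NimC4, the receptor for dying cells, was seen in both mutants only. It had 14, 21 and 6 counts in tuSz1, 233, 740 and 74 counts in hopTum, and 0 counts in each w1118 library. The levels were 1.29 ± 0.56 CPM in tuSz1 and 33.3 ± 32.7 CPM in hopTum (SD, n = 3 each). Against the floor of 3 counts per w1118 library, the level was at least 6.09-fold higher in tuSz1 (adjusted p = 0.0211, edgeR) and at least 157-fold higher in hopTum (adjusted p = 9.44e-04). The mutants did not overlap, and the log2 fold change between tuSz1 and hopTum was -4.65 (with SE 0.87, adjusted p = 0.0126, edgeR). Without tuSz1 replicate 1, 2 or 3 the adjusted p of that difference was 0.0558, 0.053 and 0.0776 at log2 fold changes of -4.66, -4.99 and -4.38. The call in tuSz1 against w1118 was lost without w1118 replicate 2 (adjusted p = 0.0537), w1118 replicate 3 (0.0546), tuSz1 replicate 2 (0.0684), tuSz1 replicate 3 (0.0725) or hopTum replicate 1 (0.0509), and with no filter on low counts (0.0587, edgeR). NimC4 entered the test through its hopTum counts, and in the fit of the tuSz1 and w1118 libraries alone it was not tested.

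The 3 hopTum libraries differed in NimC4 far beyond counting error, at 23.8, 69.7 and 6.5 CPM in replicates 1, 2 and 3. The summed fat body markers ran in the same order, at 37991, 78752 and 22030 CPM, as did the 4 muscle markers, at 19693, 31791 and 3460 CPM. So did the summed crystal cell markers, at 247, 478 and 133 CPM, and the summed midgut markers, at 7516, 8770 and 1983 CPM. The summed salivary glue genes also ran in that order, at 12616, 16534 and 12426 CPM, with replicates 1 and 3 close together. The summed lamellocyte markers did not, nor did the plasmatocyte and pan-hemocyte markers, at 64.3, 98.5 and 89.1 CPM. Single markers did not always follow their sum. Among the tested markers of the sums that ran in that order, Tm2, lz, Men, Sgs5, Sgs7 and Sgs8 did not keep it. LysD carried most of the midgut sum. The part of any of these markers in the NimC4 level was not tested. NimC4 lies within the span of nAChRalpha5, a neuronal acetylcholine receptor gene on the same strand, and shares no exon base with it. That gene had 26, 31 and 50 counts in tuSz1, 44, 46 and 57 in hopTum, and 91, 84 and 59 in w1118, and was not called in any comparison (adjusted p from 0.437 to 0.718, edgeR).

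Sr-CI was counted almost entirely in hopTum. It had 1, 2 and 0 counts in tuSz1, 121, 83 and 92 counts in hopTum, and 0 in each w1118 library, all in 1 of its 2 transcript rows. The hopTum level of 9.42 ± 2.55 CPM (SD, n = 3) was at least 44.3-fold higher than in w1118 (adjusted p = 1.22e-04, edgeR). The 3 counts in tuSz1 against 296 in hopTum gave a ratio of 0.0106, with an exact binomial 95% interval of 0.00218 to 0.0313 that covers counting error only. The difference between the mutants passed the test (adjusted p = 9.10e-04, edgeR). Sr-CI entered the test only through its hopTum counts, so both adjusted p-values are descriptions. Both tuSz1 and w1118 were at or under the floor, so no fold is given between them.

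**Figure D3:**
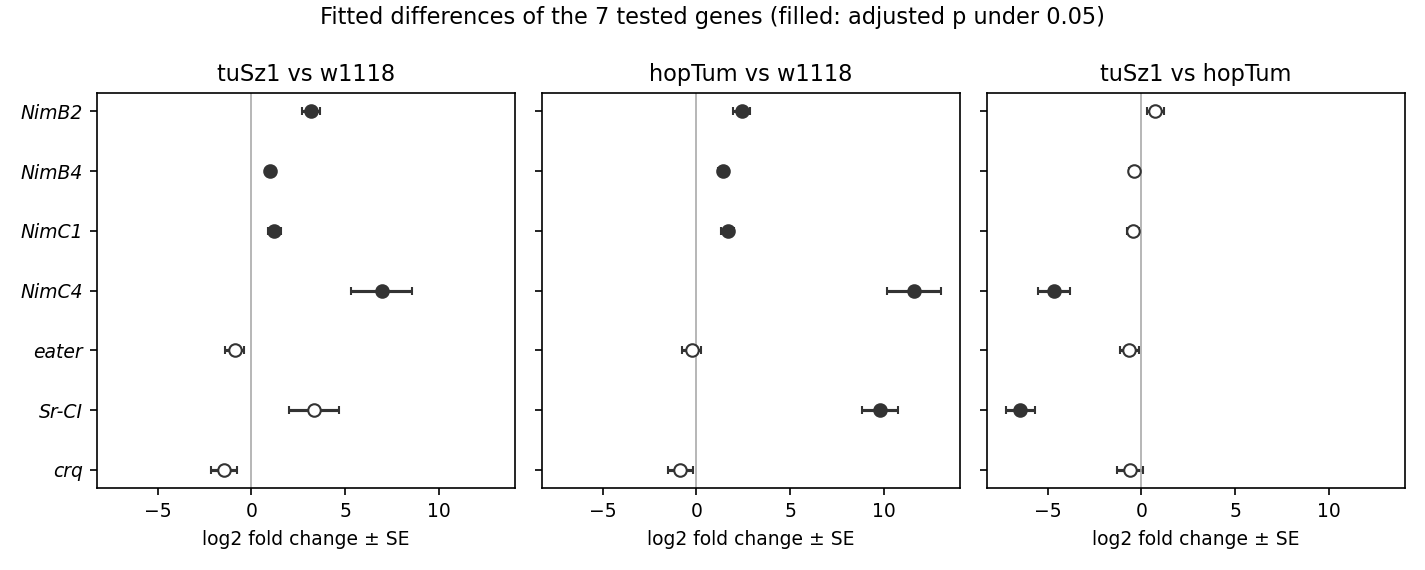
Fitted log2 fold change with its SE for the 7 tested members in 3 panels that share an axis, tuSz1 against w1118, hopTum against w1118, and tuSz1 against hopTum, with filled points where the adjusted p was under 0.05. Values of NimC4 and Sr-CI against w1118 rest on 0 counts in w1118 and depend on the fit's prior count, so their position shows direction and not size.

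The bacterial receptor gene eater, a further plasmatocyte marker, did not pass in any comparison. It had 33.5, 53.2 and 11.2 CPM in tuSz1, 33.4, 62.5 and 57.2 CPM in hopTum, and 30.4, 71.1 and 81.4 CPM in w1118. The genotypes overlapped in each pair. The log2 fold change was -0.9 (95% interval -2.03 to 0.23, adjusted p = 0.278, edgeR) in tuSz1 and -0.26 (-1.38 to 0.87, adjusted p = 0.762) in hopTum, both against w1118. These intervals hold a 2-fold change in the lower direction for both mutants, so they do not show equal levels. The lowest library was tuSz1 replicate 3.

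The CD36-type gene crq had few counts everywhere, with 8, 3 and 13 in tuSz1, 14, 18 and 9 in hopTum, and 26, 49 and 26 in w1118. The counts of both mutants lay under those of w1118. The log2 fold change was -1.48 (with SE 0.68, 95% interval -2.97 to 0.01, adjusted p = 0.168, edgeR) in tuSz1 and -0.85 (SE 0.66, -2.29 to 0.59, adjusted p = 0.401) in hopTum, both against w1118. The tuSz1 difference passed under total count scaling (-2.37, adjusted p = 0.0237, edgeR). Groups that do not overlap were common over all tested genes, at 38.6% in tuSz1 against w1118 (21.4% higher and 17.1% lower), 39.0% in hopTum against w1118 (20.4% higher, 18.6% lower) and 29.1% when tuSz1 was set against hopTum (13.7% higher, 15.5% lower). Among the members, 5, 6 and 2 genes did not overlap in these comparisons.

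Ratios of counts within a library do not depend on scaling, and 8 were computed after the levels were seen. NimB2 counts were 18.9, 11.9 and 145.6 times those of eater in tuSz1, 15.4, 12.3 and 7.66 times in hopTum, and 5.2, 0.97 and 1.19 times in w1118. NimC1 counts were 0.332, 0.319 and 1.44 times those of eater in tuSz1, 0.471, 0.363 and 0.379 times in hopTum, and 0.176, 0.105 and 0.0738 times in w1118. Neither ratio overlapped between a mutant and w1118, a description that follows from the levels given above, from which the pairs were picked. NimB4 counts were 3.53, 2.09 and 13.3 times those of eater in tuSz1, 4.37, 3.1 and 2.85 times in hopTum, and 2.56, 0.826 and 0.658 times in w1118, and this ratio overlapped between tuSz1 and w1118 and not between hopTum and w1118. NimB2 counts were 5.34, 5.69 and 10.9 times those of NimB4 in tuSz1, 3.53, 3.96 and 2.68 times in hopTum, and 2.03, 1.18 and 1.81 times in w1118, with no overlap between any pair of genotypes. With 3 libraries a side an exact two-sided permutation test cannot go below 0.1, so no p is given. NimB4 and NimC1 had the most alike profiles of the tested members. The ratio of NimB4 to NimC1 was 10.6, 6.56 and 9.28 in tuSz1, 9.27, 8.55 and 7.53 in hopTum, and 14.5, 7.86 and 8.92 in w1118, and it overlapped in every pair. The ratio of crq to eater was 0.0227, 0.00493 and 0.138 in tuSz1, 0.0428, 0.0271 and 0.0138 in hopTum, and 0.0628, 0.046 and 0.0231 in w1118, and it also overlapped in every pair. The ratio of NimB2 to its neighbour NimB3 was 2.8, 2.66 and 4.96 in tuSz1, 3.76, 3.66 and 2.89 in hopTum, and 2.01, 1.27 and 0.811 in w1118, so both mutants lay above w1118 and overlapped each other. NimC4 to Sr-CI could be taken only in hopTum, at 1.93, 8.92 and 0.804.

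**Figure D4:**
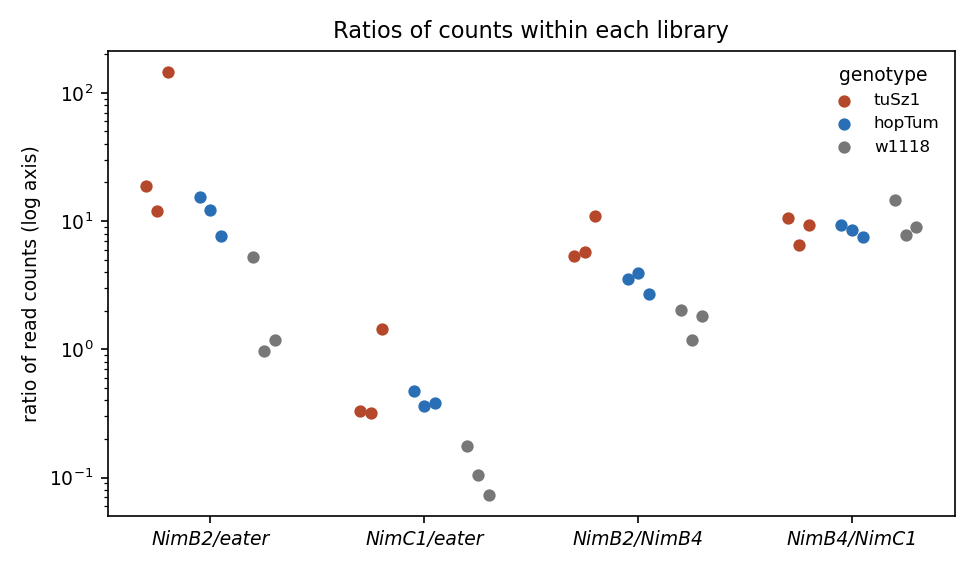
Ratio of read counts of 2 members within the same library, on a log axis, for the 3 libraries of tuSz1, hopTum and w1118. The ratios of NimB2 to eater, NimC1 to eater and NimB2 to NimB4 are higher in every mutant library than in any w1118 library, while NimB4 to NimC1 overlaps between all genotypes.

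In whole larvae, fewer cells of a type and less RNA per cell cannot be told apart. Of 12 markers of plasmatocytes and of blood cells in general, which include 4 members, 5 were listed at 0 in all libraries (Hml, vkg, He, gcm and Ppn). Only 0.0% to 6.2% of the exon bases of each of these 5 are private, so they are not called unexpressed. The 4 members gave 84.9% to 98.7% of the summed level in every library, so the list adds little to the member values above. The other 8 markers summed to 1.62, 2.8 and 5.12 CPM in tuSz1, 1.43, 3.77 and 1.32 CPM in hopTum, and 1.4, 1.07 and 1.59 CPM in w1118, too few counts to compare plasmatocyte content. The summed level of 10 lamellocyte markers was 2686 to 2942 CPM in tuSz1, 17398 to 19776 in hopTum and 67 to 88.4 in w1118. It included the defining marker atilla, with 16.1% private exon bases, and betaTub60D, with 0.1%, both listed at 0 throughout. PPO3, a lamellocyte phenoloxidase, ItgaPS4, an integrin subunit, and Tep1, a thioester protein, carried most of that sum in the mutants. Of the 8 tested markers 3 were called higher in tuSz1 and 4 in hopTum, both against w1118, and none lower. In tuSz1, cher, Treh and msn had log2 fold changes of -0.86, -1.09 and -0.31, none called. In hopTum, cher and Treh had -0.1 and -0.64, and msn and rhea 0.89 and 0.58, none called. The means of NimC4, NimB4 and NimC1 were also highest in hopTum and lowest in w1118, though tuSz1 and hopTum did not differ past the threshold for NimB4 and NimC1. Sr-CI was highest in hopTum, with tuSz1 and w1118 at or under the floor. NimB2 was highest on average in tuSz1, and eater and crq in w1118. The part of lamellocyte number in these results was not tested.

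Among 14 other scavenger and Nimrod receptor genes, NimA, NimB1 and drpr, the gene of the engulfment receptor Draper, were listed at 0. These have 0.0% to 0.2% private exon bases and are not called unexpressed. Of the 14 genes, 8 were tested. In tuSz1 against w1118 4 were higher and 2 lower (16.3% of all tested genes called), and in hopTum against w1118 2 were higher and 3 lower (18.1% called). The medians were 1.52 and 0.41, against 0.08 and -0.05 for all tested genes. Sr-CIV had 49.6, 42.6 and 35.5 CPM in tuSz1, 870, 859 and 784 CPM in hopTum, and 9.71, 10.9 and 22.2 CPM in w1118. Against w1118 it was higher in tuSz1 (1.58 on the log2 scale, SE 0.33, adjusted p = 0.00777, edgeR) and in hopTum (5.87, SE 0.4, adjusted p = 2.08e-06), and lower in tuSz1 than in hopTum (-4.3, SE 0.37, adjusted p = 7.79e-05). The call in tuSz1 against w1118 was lost under total count scaling (0.82, adjusted p = 0.121, edgeR).

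Sr-CIII, which ends 74 bases before the start of Sr-CI on the same strand, had 245, 234 and 101 counts in tuSz1, 815, 249 and 672 in hopTum, and 11, 7 and 4 in w1118. Unlike Sr-CI it was called in both mutants, with log2 fold changes of 5.13 (with SE 0.58, adjusted p = 1.56e-04, edgeR) in tuSz1 and 6.7 (SE 0.61, adjusted p = 1.88e-05) in hopTum. NimB3, which lies between NimB2 and NimB4, was higher in tuSz1 (264 ± 56.7 against 84.3 ± 33 CPM, adjusted p = 0.00529, edgeR) and had 166 ± 38.6 CPM in hopTum (adjusted p = 0.0526). The NimB3 call in tuSz1 was lost under total count scaling, at 0.82 against 1.65 on the log2 scale (adjusted p = 0.0597, edgeR). The CD36-type genes went both ways. Pes, a receptor for mycobacteria, was higher in tuSz1 (7.5 ± 1.46 against 2.71 ± 0.74 CPM, adjusted p = 0.0412, edgeR), a call lost under 12 of 18 settings. The carotenoid uptake gene santa-maria was lower in tuSz1 (1.73 ± 0.68 CPM) and hopTum (2.72 ± 1.63 CPM) than in w1118 (32 ± 12.8 CPM; adjusted p = 5.03e-04 and 0.00113, edgeR). Likewise dsb, of the same family, was at 0.53 ± 0.38 CPM in tuSz1, 0.33 ± 0.3 in hopTum and 7.52 ± 8.09 in w1118 (adjusted p = 0.0303 and 0.0181, edgeR), with the calls lost under 5 and 2 of 17 settings. The CD36-type gene emp was lower in hopTum (6.47 ± 1.72 CPM) than in w1118 (15.5 ± 3.01 CPM; adjusted p = 0.0297, edgeR), a call lost under 6 of 18 settings.

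**Figure D5:**
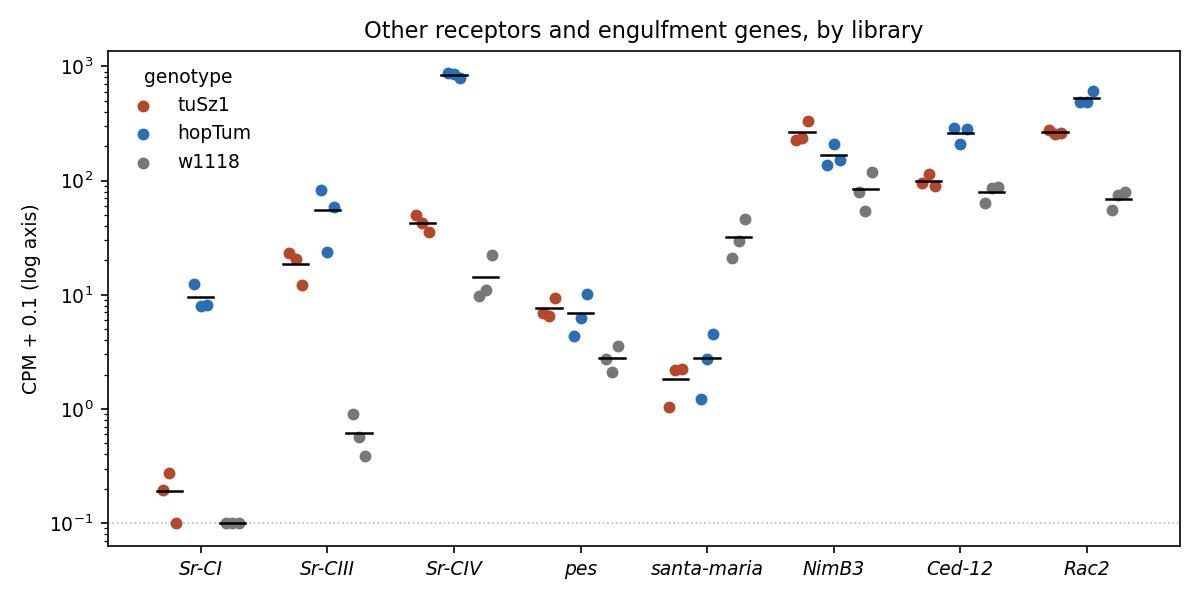
Level in each library of Sr-CI beside other receptor and engulfment genes, as CPM + 0.1 on a log axis, with a bar at the mean of the 3 libraries of tuSz1, hopTum and w1118. Sr-CIII, Sr-CIV and Rac2 are higher in both mutants than in w1118 and highest on average in hopTum, and santa-maria is lower in both mutants.

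Of 20 genes that act in engulfment and the phagosome, 17 were tested. In tuSz1 against w1118 1 was higher and 2 lower, beside 16.3% called over all tested genes, a share near that of the list. In hopTum against w1118 6 were higher and 2 lower (18.1% called over all). In tuSz1 against hopTum 5 were lower and the other 12 did not pass (9.66% called and 4.14% called lower over all). The lower genes were Ced-12, Rac2, Rab7, Shark and Tep2, and the calls of the last 3 were lost under 8, 7 and 10 of 18 settings. The medians of -0.23, -0.21 and -0.45 stood beside 0.08, -0.05 and 0.03 for all tested genes. Rac2, a small GTPase of blood cells that drives actin rearrangement, was at 263 ± 10.5 CPM in tuSz1, 526 ± 69 in hopTum and 69.3 ± 12.6 in w1118, and was called in all 3 comparisons, with the call between the mutants lost under 6 of 18 settings. Ced-12, which activates Rac, was at 98.8 ± 12.6 CPM in tuSz1, 261 ± 44 in hopTum and 78.7 ± 13.6 in w1118, with calls in hopTum against w1118 and tuSz1 against hopTum. The remaining hopTum calls against w1118 were Shark, Rab7, psidin and Tep2, higher, and ced-6 and Tep3, lower, and each was lost under 1 or more of the settings tried. The lower calls in tuSz1 against w1118 were Rab5, a GTPase of early endosomes (6.03 ± 1.41 against 16.5 ± 4.49 CPM, adjusted p = 0.0248, edgeR), and Dscam1, a cell adhesion gene (10.7 ± 1.56 against 26.7 ± 7.12 CPM, adjusted p = 0.0349), each lost under 7 of 18 settings.

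The genes most like each called member were found by the root mean square difference of mean-centred log2(CPM + 0.5) over the 9 libraries, among the 5981 tested genes whose mean reached 5 CPM. For NimB2 they were GstE6 and CG6733, at 0.32 and 0.36. For NimB4 they were Ttd14 and CG16787, at 0.13 and 0.16, and for NimC1 Nop10 and inaE, at 0.19 and 0.23. For Sr-CI they were Nmdar2 and lncRNA:CR43166, at 0.34 and 0.46, which averaged 9.34 and 9.51 CPM in tuSz1, 213 and 164 CPM in hopTum, and 8.73 and 8.68 CPM in w1118. For NimC4 the nearest genes, Or1a and mthl4, stood at 0.78 and 0.86. Sr-CI itself averaged 0.09 CPM in tuSz1 and 0 CPM in w1118, and NimC4 0 CPM in w1118. There the added 0.5 CPM sets their log2 values and shortens their step to hopTum. The distances of these members depend on that choice, and their nearest genes need not share the size of their difference.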

How the data were processed

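The authors deposited 1 count file per library, which lists whole-number counts for 34111 RefSeq transcript accessions. Genome build dm6, FastQC 0.11.8, HISAT2 2.1.0 and featureCounts 1.6.3 are named in the submitters' processing notes; their settings, strand included, are not given in the sources used here. Of the accessions, 33730 matched the RefSeq gene table (Release 6 plus ISO1 MT) with their version and 146 without it; 235, with 0.428% of counts, did not. Counts were summed per gene. Exons came from the Ensembl BDGP6 annotation in dm6 coordinates; private bases lie in exactly 1 transcript, both strands pooled.

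All 9 libraries were fitted with edgeR 4.0.16 in R 4.3.3 (TMM, default low-count filter by genotype, robust quasi-likelihood test, 1 coefficient per genotype). The SE of a log2 fold change is its size divided by the square root of F. The script was tested on simulated data. The labels call the libraries biological replicates of pooled larvae, and no 2 libraries of the same genotype matched within sampling noise (chi-square per degree of freedom of at least 49.8). Replicate numbers were not used to pair libraries in the main fit. Same-numbered deviations correlated at -0.4 to 0.19. They were not compared with differently numbered libraries, so these values cannot decide whether the numbers mark a batch. All members are described, listed receptor and engulfment genes are named if called, and the 2 most alike genes are named for each called member; nAChRalpha5, the cell type markers and the genes of the cluster map were named after values were seen. Alternatives were DESeq2 1.42.0 size factors and Wald test, total count scaling, 50 genes left out, other filters, 6-library fits, a replicate block, 1 transcript row per gene and leaving out each library. The members and lists were chosen with earlier results of these data known. Figures used matplotlib 3.10.9.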

Additional observations from a re-analysis of the deposited data

How the results depend on the processing

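In hopTum against w1118 the same 5 members were called under every setting tried, except a mean count of at least 50, which left Sr-CI untested and gave 4. With 1 library left out, all tested genes called ran from 823 to 2000, with 823 without w1118 replicate 2, 995 without w1118 replicate 3 and 845 without hopTum replicate 1. In tuSz1 against w1118 NimB2 alone was called under every setting. The member count of 4 became 1 with no filter on low counts, 2 in the fit of 6 libraries, and 1 to 4 with 1 library left out: 1 without w1118 replicate 2, w1118 replicate 3 or tuSz1 replicate 3, and 2 without tuSz1 replicate 2. All tested genes called then ran from 786 to 1701, with 786 without w1118 replicate 2 and 857 without w1118 replicate 3. In tuSz1 against hopTum the member count of 2 became 1 with a mean count of at least 50 and 1 to 2 with 1 library left out, 1 without any one tuSz1 library. There 1408 genes were called under total count scaling, 1341 by DESeq2 and 504 with the replicate block, and 507 to 891 with 1 library left out, with 507 without hopTum replicate 1, 565 without hopTum replicate 3 and 557 without tuSz1 replicate 2. The replicate block ended the NimC1 call in tuSz1 against w1118 (log2 fold change 1.22, adjusted p = 0.0525, edgeR) and no other member call. Whether the replicate numbers pair the libraries was not settled. Signs turned for eater in hopTum against w1118 without w1118 replicate 3 (0.0081) and for NimC1 in tuSz1 against hopTum in its transcript row 3 (0.22), neither called, with eater between -0.58 and 0.0081 over the fits without 1 library; the cause was not tested. The share of called genes that were higher in tuSz1 against w1118 was 61.2%, but 19.8% under total count scaling; in hopTum against w1118 it was 63.3% and 37.5%, and in tuSz1 against hopTum 57.2% and 27.6%. Low counts limit crq, Sr-CI outside hopTum, and NimC4 in tuSz1. Few exon bases of crq (4.1%) and Sr-CI (6.7%) are private.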
